A study of Mus musculus with 12 samples.

Results

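Condensins are the ring-shaped ATPase complexes that fold chromatin loops and compact chromosomes for mitosis. The messenger RNAs of their 8 subunits were followed in mouse embryonic fibroblasts carrying wild-type or mutant Rb1. The members were chosen by name: the SMC ATPases Smc2 and Smc4, which both complexes share, Ncapd2, Ncapg and Ncaph of condensin I, and Ncapd3, Ncapg2 and Ncaph2 of condensin II. All 8 were measured, each by 1 probe set annotated to that symbol alone, among 19938 genes tested. RNA from each of 12 samples was read on its own Affymetrix Mouse Gene 1.0 ST array. There were 4 groups with 3 arrays in each: Rb1 S/S mutant cells, the Rb1 +/+ wild type matched to them (together the S set), Rb1 L/L mutant cells, and the Rb1 +/+ wild type matched to those (the L set). All cells, wild types included, were grown in 10% serum until passage 4 and then held for 72 h at 0.1% serum, a treatment meant to arrest growth. The labels do not say how the S or the L allele alters the protein. They also leave out embryo age, strain, and whether replicate arrays represent different embryos or different dishes. The p-values therefore measure only the spread between these samples, which may be technical.

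As background, SMC2 and SMC4 pair through a hinge and are closed into a ring by a kleisin subunit, NCAPH in condensin I and NCAPH2 in condensin II. A pair of HEAT-repeat subunits binds each kleisin: NCAPD2 and NCAPG in condensin I, NCAPD3 and NCAPG2 in condensin II. Condensin II is nuclear throughout the cell cycle and starts compaction in prophase, and condensin I reaches chromosomes after the nuclear envelope breaks down. The retinoblastoma protein, the product of Rb1, represses E2F-driven genes, and binding of NCAPD3 to retinoblastoma family proteins has been described in Drosophila and human cells. Many genes of mitosis are controlled through CHR elements, CCAAT boxes and E2F sites in their promoters.

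For condensin I, condensin II and the shared SMC genes, the promoter of the gene with the smallest p against wild type in either mutant is shown. Each run is the RefSeq window (GRCm38.p6) from 250 bases before to 50 after the annotated start, 5′ to 3′ as that table gives it, with matches to the motifs searched in capitals (a match on the other strand reads ATTGG for CCAAT and TTCAAA for TTTGAA). The motifs were TTTGAA and TTTAAA (CHR), CCAAT, and the E2F forms TTTCCCGC, TTTGGCGC, TTTCGCGC and TTTGCCGC, on both strands.
Ncapd2 (condensin I), chr6:125191537-125191836, minus strand: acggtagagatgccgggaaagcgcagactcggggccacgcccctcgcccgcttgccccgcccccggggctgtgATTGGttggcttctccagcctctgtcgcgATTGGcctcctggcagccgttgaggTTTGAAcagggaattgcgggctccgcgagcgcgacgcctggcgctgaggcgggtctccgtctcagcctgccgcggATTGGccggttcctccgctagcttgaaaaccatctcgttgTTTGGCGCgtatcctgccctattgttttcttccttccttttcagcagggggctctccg
Ncapd3 (condensin II), chr9:27029915-27030214, plus strand: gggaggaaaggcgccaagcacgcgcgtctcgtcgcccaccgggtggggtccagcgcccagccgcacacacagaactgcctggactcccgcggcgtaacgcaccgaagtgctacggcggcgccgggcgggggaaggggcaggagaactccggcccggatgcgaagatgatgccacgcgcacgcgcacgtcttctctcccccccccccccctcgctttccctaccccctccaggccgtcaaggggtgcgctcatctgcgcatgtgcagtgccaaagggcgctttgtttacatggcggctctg
Smc2 (shared), chr4:52438971-52439270, plus strand: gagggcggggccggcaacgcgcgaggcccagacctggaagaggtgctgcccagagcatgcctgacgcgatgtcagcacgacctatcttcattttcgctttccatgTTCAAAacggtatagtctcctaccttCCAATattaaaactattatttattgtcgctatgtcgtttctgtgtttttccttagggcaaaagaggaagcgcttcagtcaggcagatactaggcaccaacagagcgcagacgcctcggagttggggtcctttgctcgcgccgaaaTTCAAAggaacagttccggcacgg

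The Ncapd2 window held 3 CCAAT matches, which began 177, 148 and 48 bases before the start, TTTGAA at 123 bases, and the E2F form TTTGGCGC at 8 bases before it. The Ncapd3 window shown held none of the motifs, and a second RefSeq window for that gene, not shown, held TTTGAA and TTTAAA. Smc2 had TTTGAA on either side of its start and 1 CCAAT match. RefSeq windows were matched for 7 of the 8 genes, 8 windows in all, and the exception was Smc4. The E2F forms occurred in 3 of these 8 windows (Ncapd2, Ncapg and Ncapg2), against 2.3% of 32851 mouse windows of the same length. TTTGAA occurred in 5 of 8 windows against 17.9% of all, TTTAAA in 1 against 13.2%, and CCAAT in 3 against 37.4%. These matches describe the letters of the windows only.

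The values are log2 RMA values, so that a difference of 1 is a doubling of signal. Array medians lay between 6.85 and 7.01. One wild-type array of the S set, number 1, differed from the rest: its interquartile range was 3.10, against at least 3.39 on each other array, and its residual SD was 0.325, against at most 0.193. Y-linked genes and Xist gave a male pattern in array 1 of L/L and array 1 of its wild type and a female pattern in the other 10. There the Y-linked Eif2s3y, Uty and Kdm5d read 3.82 to 5.51, the level such probe sets gave without a target. The fibroblast markers Col1a1 and Vim had group means of 12.53 to 12.99 and 13.31 to 13.51. Rb1 itself read 9.72, 9.58 and 9.35 in S/S and 8.34, 8.83 and 8.89 in its wild type. It read 9.39, 9.36 and 9.23 in L/L and 9.23, 9.05 and 8.61 in its wild type. Its differences of 0.87 and 0.36 did not pass (limma, adjusted p = 0.0976 and 1).

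**Figure D1:**
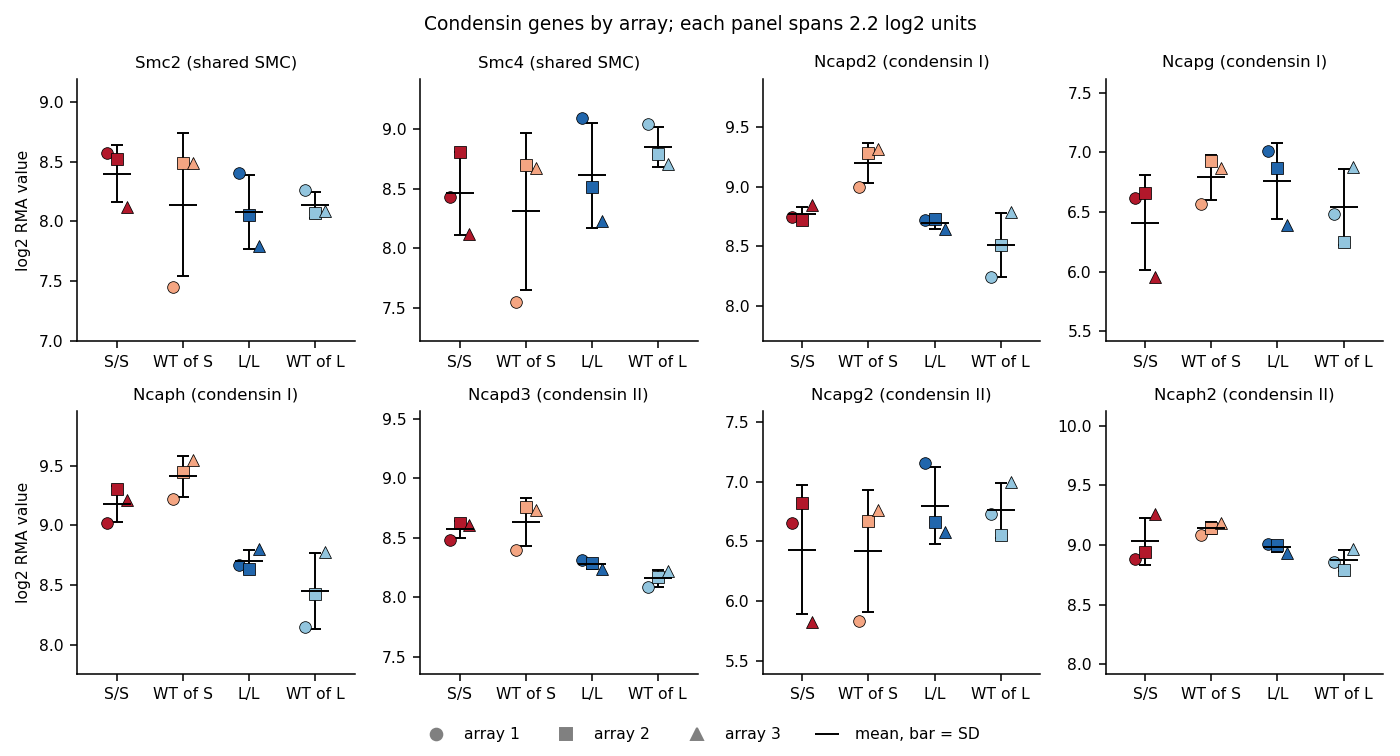
Log2 RMA value (y axis, of equal height in every panel) of the 8 condensin genes in 4 groups of 3 arrays (x axis), with symbols for the arrays and a bar for mean and SD. The 3 S/S arrays of Ncapd2 sit below the 3 of its wild type, and wild-type array 1 of the S set is low for Smc2, Smc4 and Ncapg2.

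The first comparison asked whether condensin RNA differed between S/S cells and their matched wild type. None of the 8 genes passed at an adjusted p under 0.05 (limma over all genes, background 0.12% of genes called), and 1 had an unadjusted p under 0.05, against 10.1% of all genes. The 3 condensin I genes all had negative differences (median −0.38), as did 57.6% of all genes. Condensin II had a median of −0.06, and both shared SMC genes had positive differences (median 0.20). The median of all genes was −0.04. The complexes are set side by side here and the difference between them was not tested.

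Ncapd2, the HEAT-repeat subunit of condensin I, read 8.75, 8.72 and 8.85 in S/S and 9.00, 9.28 and 9.32 in its wild type. All 3 S/S arrays lay below all 3 wild-type arrays, and the S/S arrays spread less (SD 0.06 in S/S and 0.17 in its wild type). Ncapd2 was the only condensin gene with such a gap in S/S, where 6.29% of all genes lay wholly below wild type. The difference was −0.43 (SE 0.135, 95% interval −0.717 to −0.136), 1.34-fold lower, with an unadjusted p of 0.00731 and an adjusted p of 0.327. It passed only when arrays were weighted by their quality (−0.51, adjusted p = 0.0297), a setting that called 2.08% of all genes, and the other 20 settings left it short, with adjusted p up to 0.698. Those weights ran from 0.08 for wild-type array 1 to 5.88 for wild-type array 2 of the S set.

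Ncaph, the kleisin of condensin I, read 9.02, 9.30 and 9.21 in S/S and 9.22, 9.45 and 9.55 in its wild type. The highest S/S array lay above the lowest wild-type array, and the difference of −0.23 had a 95% interval of −0.56 to 0.10 (adjusted p = 0.581). Ncapg, the other HEAT-repeat subunit, read 6.62, 6.66 and 5.95 in S/S and 6.57, 6.93 and 6.87 in its wild type. S/S array 3 alone was far below the rest, and the difference of −0.38 had an interval of −0.85 to 0.09 (adjusted p = 0.545).

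The differences of condensin II in S/S were −0.11 to 0.01. Ncapd3, the HEAT-repeat subunit described to bind retinoblastoma proteins, read 8.48, 8.62 and 8.61 in S/S and 8.40, 8.76 and 8.73 in its wild type. All 3 S/S arrays lay inside the wild-type range, and the interval of the difference of −0.06 was −0.30 to 0.18. The kleisin gene Ncaph2 read 8.88, 8.94 and 9.26 in S/S and 9.08, 9.14 and 9.18 in its wild type, a difference of −0.11 with an interval of −0.35 to 0.13. Its S/S arrays lay on both sides of the narrow wild-type range. Ncapg2 read 6.65, 6.82 and 5.82 in S/S and 5.83, 6.67 and 6.76 in its wild type. Each group had 1 low array, and the difference of 0.01 had an interval as wide as −0.60 to 0.61.

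The shared ATPase gene Smc2 read 8.57, 8.52 and 8.12 in S/S and 7.45, 8.49 and 8.49 in its wild type. Smc4 read 8.43, 8.81 and 8.12 in S/S and 7.55, 8.70 and 8.67 in its wild type. The low wild-type value of each came from array 1, the array that differed from the rest, and it set the sign of the difference. Smc2 had 0.26 with all arrays and −0.09 without that array, and Smc4 had 0.15 and −0.23. Without that array Ncapg2 had −0.29, so that all 8 condensin genes then had negative differences in S/S, none past the threshold (limma, adjusted p from 0.14 to 0.893). With all arrays 57.6% of all genes were negative, and the share without that array was not counted. The medians without it were −0.49 for condensin I, −0.18 for condensin II and −0.16 for the SMC genes.

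Markers of other cell types were read beside these values. All 12 macrophage and blood cell markers were positive, with every S/S array above every wild-type array for each of the 12, and none passed. Over all genes 42.4% were positive and 5.49% had that order. The smallest p were those of Itgam (0.74, limma, adjusted p = 0.315), Cd68 (1.22), Cd53 (1.28) and Fcer1g (1.03). Their mean level relative to the 12 arrays was 0.37 to 0.50 in S/S and −0.49 to −0.21 in its wild type, and −1.28 to 0.44 in L/L and −0.91 to 1.21 in its wild type. The lowest of the 12 in S/S, Ptprc, averaged 6.49, against 3.82 to 5.51 for the Y-linked genes in female-pattern arrays. Of 8 endothelial markers 3 were positive and 5 negative in S/S (median −0.04), and 0 passed. The smallest p were those of Flt1 (0.72, adjusted p = 0.0603), Emcn (1.62, adjusted p = 0.197), Egfl7 (−0.31) and Pecam1 (−0.18). Epithelial markers had 1 of 8 and fibroblast markers 8 of 12 positive, and 0 passed. The part of these cell types in the condensin values was not tested. In such bulk RNA, fewer cells of a type and less RNA per cell cannot be told apart.

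L/L cells were then compared with their own wild type. None of the 8 genes passed (limma, background 0.0401% of genes called), and 0 had an unadjusted p under 0.05, against 3.27% of all genes. The differences of condensin I were 0.19 to 0.25, those of condensin II were 0.03 to 0.12, and those of the SMC genes were −0.23 and −0.06. Positive differences made up 6 of 8, against 55.9% of all genes. The medians were 0.22, 0.11 and −0.15, against 0.02 for all genes. Among cell type markers, 11 of 12 macrophage and blood cell and 9 of 12 fibroblast markers were negative in L/L, against 44.1% of all genes. For 5 fibroblast markers every L/L array lay below every wild-type array, against 5.1% of all genes. Positive were 6 of 8 endothelial and 4 of 8 epithelial markers. No marker passed, and their part in the condensin values was not tested.

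In L/L, Ncaph read 8.67, 8.63 and 8.80, against 8.15, 8.42 and 8.78 in its wild type. Only wild-type array 3 reached the L/L level, and the difference of 0.25 had an interval of −0.08 to 0.58 (unadjusted p = 0.122). Ncapd2 read 8.72, 8.73 and 8.65 in L/L and 8.24, 8.51 and 8.79 in its wild type, a difference of 0.19 with an interval of −0.10 to 0.48. Wild-type array 3 lay above all 3 mutant arrays, and the wild-type arrays spread far more than the mutant ones. Ncapg read 7.01, 6.87 and 6.39 in L/L and 6.48, 6.25 and 6.88 in its wild type, with overlapping groups (0.22, interval −0.25 to 0.69).

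Ncapd3 was the only condensin gene whose L/L arrays, at 8.31, 8.29 and 8.24, all lay above those of its wild type, at 8.09, 8.17 and 8.22. Across all genes 9.71% had that order. The closest arrays were barely apart, and the difference of 0.12 had an interval of −0.11 to 0.36 (adjusted p = 1). Ncaph2 read 9.01, 9.00 and 8.93 in L/L and 8.86, 8.79 and 8.97 in its wild type (0.11, interval −0.13 to 0.35). Ncapg2 read 7.16, 6.66 and 6.58 in L/L and 6.73, 6.55 and 7.00 in its wild type (0.03, interval −0.57 to 0.64). Both overlapped between the groups.

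Smc2 read 8.41, 8.05 and 7.79 in L/L and 8.26, 8.07 and 8.09 in its wild type, and Smc4 read 9.09, 8.51 and 8.23 in L/L and 9.04, 8.79 and 8.71 in its wild type. The L/L arrays reached both higher and lower than the wild-type arrays for each gene. The intervals were −0.59 to 0.47 for Smc2 and −0.865 to 0.396 for Smc4. The highest values of both genes in the L set came from the male-pattern arrays.

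**Figure D2:**
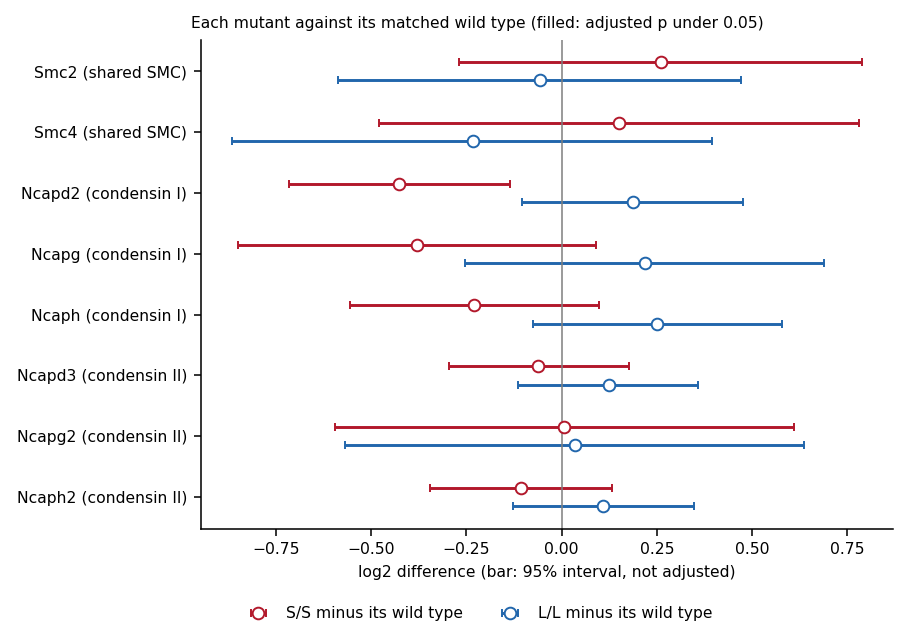
Log2 difference (x axis) of each condensin gene (rows) in S/S and in L/L against the matched wild type; points are differences, bars 95% intervals, and open points did not pass. All 16 points are open, and the 3 condensin I genes lie left of 0 in S/S and right of 0 in L/L.

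Whether the effects of the mutants differed was tested directly as the S/S effect minus the L/L effect in the same model. Both wild types enter that contrast beside both mutants, so a difference between the wild types is part of it. For Ncapd2 the means were 8.77 in S/S and 8.70 in L/L, against 9.20 in S-set and 8.51 in L-set wild type. No condensin gene passed (limma, background 0.015% of genes called), and 2 of 8 had an unadjusted p under 0.05, against 6.5% of all genes. Ncapd2 had −0.61 (SE 0.19, 95% interval −1.02 to −0.20, unadjusted p = 0.00659, adjusted p = 0.619) and Ncaph had −0.48 (SE 0.215, unadjusted p = 0.0429, adjusted p = 0.764). Ncapg had −0.60 (adjusted p = 0.779), the condensin II genes −0.22 to −0.03, and the SMC genes 0.32 and 0.38. The median of all genes was −0.06. With array weights Ncapd2 passed this test too (−0.69, adjusted p = 0.0259), when 1.47% of all genes were called. It did not pass in the other 19 alternatives (adjusted p up to 0.981).

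The 2 wild types, both Rb1 +/+, were compared as L set minus S set. The effects of embryos, culture and array handling cannot be told apart there. Each of these arrays also served as reference in a mutant comparison, so the comparisons are not independent. Here 3 of 8 condensin genes passed, all lower in the L set, against a background of 5.17% of genes called lower and 8.71% called in either direction. They were Ncaph and Ncapd2 of condensin I and Ncapd3 of condensin II. With array weights 6 of 8 passed, when 32.7% of all genes were called. Of the cell type markers, the endothelial gene Tek (0.58, adjusted p = 0.0134) and the fibroblast gene Dcn (0.35, 0.0452) were higher and the fibroblast gene Thy1 (−0.49, 0.0201) was lower in the L set. None of the 12 macrophage or 8 epithelial markers passed, and the part of these markers in the condensin differences was not tested.

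Ncaph averaged 8.45 ± 0.32 in L-set wild type, against 9.41 ± 0.17 in S-set wild type (SD, n = 3 each, array values above). The groups were far apart, and the difference of −0.96 (SE 0.15, adjusted p = 0.00353) was a 1.94-fold lower signal. It passed in all 19 alternatives, with adjusted p up to 0.0376. Ncapd2 averaged 8.51 ± 0.27 in L-set wild type, against 9.20 ± 0.17 in S-set wild type (SD, n = 3 each), a difference of −0.69 (SE 0.135, adjusted p = 0.00883) without overlap. It did not pass without both male-pattern arrays (−0.55, adjusted p = 0.0805, background 1.52% of genes called). Ncapd3 averaged 8.16 ± 0.07 in L-set wild type, against 8.63 ± 0.20 in S-set wild type (SD, n = 3 each), a difference of −0.47 (SE 0.11, adjusted p = 0.0208), also without overlap. It passed in 14 of 19 alternatives. The exceptions were the fits lacking L-set wild-type array 1 (adjusted p = 0.0971) or 2 (0.0685), S-set wild-type array 2 (0.0568) or 3 (0.0548), or both male-pattern arrays (0.146).

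The remaining members did not pass between the wild types. Ncaph2 had −0.26 (adjusted p = 0.166), with the L set arrays wholly below those of the S set, as for 16.1% of genes. Smc4 had 0.54 (adjusted p = 0.29), with the L set arrays wholly above, as for 11.5% of genes, and leaving out S-set wild-type array 1 gave 0.16. Ncapg had −0.25, Ncapg2 0.34 and Smc2 0.00, all with overlap, and leaving out that array gave 0.04 for Ncapg2 and −0.35 for Smc2.

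The mutant arrays, which share no array with the wild types, were also compared as L set minus S set. This comparison was added after the data were seen. It changes the Rb1 allele together with the set, and the effects of allele and set cannot be told apart in it. L/L minus S/S gave no condensin gene past the threshold (background 9.44% of genes called), and 2 with an unadjusted p under 0.05, against 22.2% of all genes. Ncaph had −0.48 (SE 0.15, adjusted p = 0.0688), with L/L at 8.70 ± 0.09 and S/S at 9.18 ± 0.15 (SD, n = 3 each), and the L/L arrays lay wholly below, as for 15.3% of genes. Ncapd3 had −0.29 (SE 0.11, adjusted p = 0.132) with the same order. Ncapd2, which passed in the wild types, had −0.075 (95% interval −0.365 to 0.215) in the mutants. Ncaph passed in 5 of 18 alternatives of the mutant comparison and Ncapd3 in 3, among them the fit in which S-set wild-type array 1 was left out of the pooled spread (adjusted p = 0.0282 and 0.018), array weights (18.8% of all genes called) and quantile normalization (12.2%). Ncaph also passed without array 1 or 3 of the L-set wild type (adjusted p = 0.046 and 0.0382). Of the cell type markers, 2 of 12 fibroblast and 1 of 12 macrophage and blood cell markers passed between the mutants, all lower in L/L. Of 8 endothelial markers 1 passed higher and 1 lower in L/L, and 0 of 8 epithelial markers passed. The part of these markers in the condensin values was not tested.

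**Figure D3:**
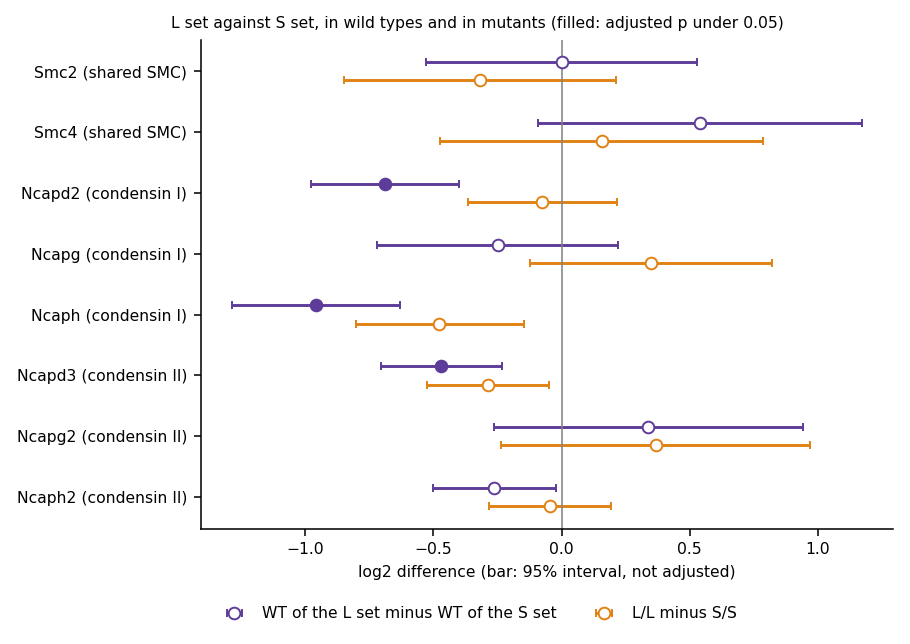
Log2 difference (x axis) of each condensin gene (rows) between the L set and the S set, for the wild types and for the mutants; bars are 95% intervals and filled points passed at an adjusted p under 0.05. Ncapd2, Ncaph and Ncapd3 are filled in the wild types, and the mutant point of Ncapd2 is near 0. The mutants differ in Rb1 allele as well as in set.

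By group mean, Ncaph, Ncapd3, Ncapd2 and Ncaph2 were each highest in S-set wild type, then S/S, then L/L, and lowest in L-set wild type. Among neighbours in that order, arrays did not overlap between L/L and S/S for Ncaph and Ncapd3, within the L set for Ncapd3 and within the S set for Ncapd2. The L/L and S/S means of Ncapd2, 8.70 and 8.77, overlapped, as did all neighbours of Ncaph2. With all arrays Smc4 had the opposite order, with L-set wild type highest, and Ncapg2 was highest in L/L, then L-set wild type, S/S and S-set wild type. Ncapg was highest in S-set wild type, then L/L, L-set wild type and S/S, and Smc2 was highest in S/S and lowest in L/L. All neighbours of these 4 genes overlapped. The place of S-set wild type for Smc4, Ncapg2 and Smc2 rested on its array 1, which read 7.55, 5.83 and 7.45. Its arrays 2 and 3 read 8.70 and 8.67 for Smc4, above the means of L/L (8.61) and S/S (8.46). They read 6.67 and 6.76 for Ncapg2 and 8.49 each for Smc2, above the S/S means of 6.43 and 8.40.

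Across arrays the subunits followed different patterns that did not divide by complex. Ncapd2, Ncaph and Ncapd3 ran together, with Pearson r of 0.83 to 0.94 over 12 arrays and 0.78 to 0.93 within the 6 L-set arrays. In the S set r was 0.83 for Ncapd2 with Ncaph, 0.80 for Ncaph with Ncapd3 and 0.60 for Ncapd2 with Ncapd3, the last 0.88 when array 1 of the wild type was left out. Ncaph2 went with these 3 less closely, with r of 0.71 to 0.76 over 12 arrays, 0.67 to 0.80 in the L set and 0.44 to 0.58 in the S set. Smc2 and Smc4 had r of 0.95 in each set, and 0.79 in the S set without wild-type array 1. Their r was lower across the sets, at 0.72 over 12 arrays and 0.42 over the 11 other than that array. Ncapg2 had r of 0.70 with Ncapg over 12 arrays, 0.75 in the S set, 0.92 there without that array, and 0.81 in the L set. Its r with Smc4 was 0.90 in the S set and 0.58 in the L set. Ncapd2 with Smc4 had r of 0.14 in the S set and −0.39 in the L set. These are descriptions over few arrays that share their hybridisation and normalization. Ncapg, at 5.95 to 7.01, and Ncapg2, at 5.82 to 7.16, had arrays little above the highest Y-linked reading of 5.51 in female-pattern arrays.

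**Figure D4:**
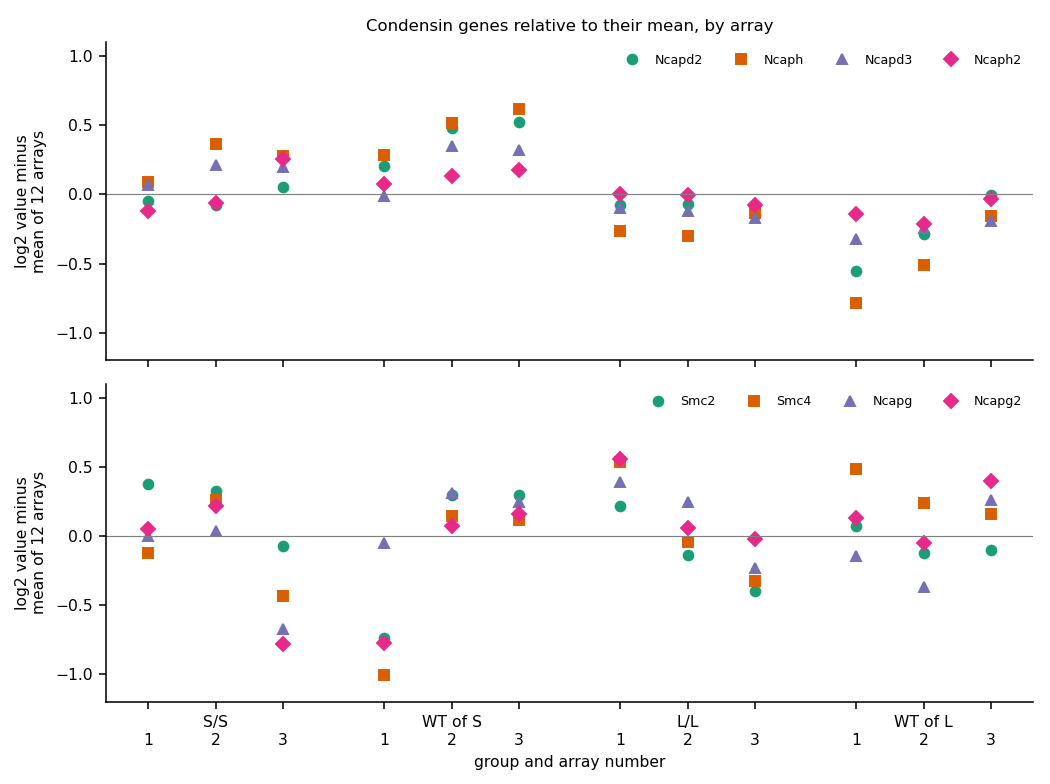
Log2 value of each condensin gene minus its mean over 12 arrays (y axis) by group and array (x axis), in 2 panels chosen after the values were seen. Ncapd2, Ncaph and Ncapd3 are lowest in wild-type array 1 of the L set, Smc2 and Smc4 in wild-type array 1 of the S set, and Ncapg and Ncapg2 in S/S array 3.

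The genes most like each member over the 12 arrays came from the whole table. For Ncapd2 they were Pimreg, the gene of the chromosomal passenger kinase Aurkb, and the spindle gene Dlgap5, with r of 0.955 to 0.961. The spindle midzone gene Prc1 headed the list for Ncaph (r = 0.979), ahead of Rasa3 and Nkd2. For Ncapd3 they were Ttc9c, the nucleoporin gene Nup93 and the transcription factor gene Bhlhe40 (0.955 to 0.969). For Ncapg they were the centromere gene Cenph, the mismatch repair gene Msh3 and the helicase gene Brip1 (0.866 to 0.874). For Ncapg2 they were the chromatin remodeller gene Smarca1, the replication kinase activator gene Dbf4, and Pgap1 (0.918 to 0.947). For Ncaph2 they were Mecr, Vav2 and Ccdc134 (0.907 to 0.932). Smc2 was nearest Ankrd49, Trpc1 and Depdc1a (0.928 to 0.952), and Smc4 was nearest Ccdc186, the cohesin acetyltransferase gene Esco1 and Ints8 (0.954 to 0.959).

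Genes that act with condensin were read from lists written for this purpose. Among 16 measured kinases, antagonists and chromosome partners of condensin, 14 were negative in S/S, the median was −0.27 and 0 passed, with 4 at an unadjusted p under 0.05. Of all genes 57.6% were negative and 10.1% had such a p. The 4 of smallest p were Cdk1 (−0.39), the mitotic kinase that phosphorylates condensin subunits, Aurkb (−0.35), its partner Incenp (−0.35) and the chromokinesin gene Kif4 (−0.32), with adjusted p of 0.39 to 0.492. In L/L 13 of 16 were positive, against 55.9% of all genes, with a median of 0.14, and 0 passed. Cdk1 (0.42, adjusted p = 0.865), Plk1 (0.32), Aurkb (0.26) and Aurka (0.22) had the smallest p. Between the wild types 6 of 16 passed, all lower in the L set, against 5.17% of all genes: Plk1 (−0.96), Aurkb (−0.82), the cyclin genes Ccna2 (−0.76) and Ccnb2 (−0.73), Kif4 (−0.75) and Cdk1 (−0.47), with adjusted p of 0.00751 to 0.0482. The mean of this list over arrays had r of 0.93 with Ncapd2, 0.89 with Ncaph and 0.82 with Ncapd3, and −0.13 with Smc4.

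Of 24 kinetochore, spindle and mitotic exit genes, 20 were negative in S/S (median −0.22) and 19 positive in L/L (median 0.12), and 0 passed in either, with 4 and 0 at an unadjusted p under 0.05. Of all genes 57.6% were negative in S/S and 55.9% positive in L/L, and 10.1% and 3.27% had such a p. Spc24 (−0.52), Cenpa (−0.51), the checkpoint gene Bub1b (−0.53) and the kinesin gene Kif20a (−0.36) led in S/S, with adjusted p of 0.23 to 0.441. In L/L the smallest p were those of Kif20a (0.28), Kif23 (0.28), Bub1b (0.31) and Cdc20 (0.21), each with an adjusted p of 1. Between the wild types Kif20a (−0.89), Cdc20 (−0.76), Prc1 (−0.87) and Anln (−0.83) passed (limma, adjusted p = 0.00409 to 0.00871). These were 4 of 24, all lower in the L set, against 5.17% of all genes called lower.

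DNA replication genes were read in the same way in L/L. All 25 had positive differences there (median 0.48), against 55.9% of all genes. Of them 19 had an unadjusted p under 0.05 (3.27% of all genes). For 18 every L/L array lay above every wild-type array (9.71% of all genes). The condensin genes had a median of 0.12, and 1 of 8 had that order. The helicase gene Mcm6 passed (1.17, adjusted p = 0.0308), and Chaf1b (0.95), Mcm2 (0.69) and Prim1 (1.15) were next, with adjusted p of 0.0805 to 0.253. In S/S 20 of 25 were negative, with a median of −0.16, 0 passing and 6 at an unadjusted p under 0.05. Of all genes 57.6% were negative in S/S and 10.1% had such a p. The smallest p were those of Orc1 (−0.37), Chaf1b (−0.42), Tk1 (−0.49) and Fen1 (−0.31). Between the wild types 10 of 25 passed, all lower in the L set, against 5.17% of all genes. They were Chaf1b (−1.02), Mcm5 (−0.88), Mcm6 (−0.74), Mcm3 (−0.72), Orc1 (−0.63), Pola2 (−0.54), Mcm2 (−0.53), Cdc45 (−0.50), Cdc6 (−0.47) and Fen1 (−0.44). In L/L minus S/S 21 of 25 were positive and 4 passed, all higher in L/L, against 3.69% of all genes called higher. That comparison called 0 of the 16 kinases and partners, and 1 of the 24 kinetochore and spindle genes, higher in L/L. The difference between these lists and the condensin genes was not tested.

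The other SMC complexes are related in structure. Of 18 genes of cohesin and its regulators, 12 were positive in S/S (median 0.17) and 10 negative in L/L (median −0.03), and 0 passed, with 4 and 0 at an unadjusted p under 0.05. Of all genes 42.4% were positive in S/S and 44.1% negative in L/L, and 10.1% and 3.27% had such a p. The cohesion-protecting gene Cdca5 (−0.58, adjusted p = 0.108), the separase gene Espl1 (−0.43), the securin gene Pttg1 (−0.30) and the cohesin release gene Wapl (0.80) had the smallest p in S/S. In L/L these were Cdca5 (0.16), the kleisin gene Rad21 (0.18), Sgo1 (0.18) and Esco1 (−0.33). Of the 18, Espl1 alone passed between the wild types (−0.74, limma, adjusted p = 0.00615), against 8.71% of all genes. It was lower in the L set, while 12 of the 18 were higher there (median 0.32), against 38% of all genes. At an unadjusted p under 0.05, 9 were higher in the L set and 3 lower, against 10.9% and 12.8% of all genes. In L/L minus S/S 1 of 18 passed, higher in L/L, against 9.44% of all genes. The mean of the cohesin list over arrays had r of 0.95 with Smc4 and 0.86 with Ncapg2, against −0.28 with Ncapd2. It was lowest in S-set wild-type array 1, at −0.69, and was 0.08 and 0.05 in wild-type arrays 2 and 3 of that set. In S/S it was −0.22 to 0.14, and in L-set wild type 0.10 to 0.16. The signs in S/S and between the wild types without that array 1 were not counted.

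Of 9 SMC5/6 genes, 6 were positive in S/S (median 0.12) and 8 in L/L (median 0.20), and 0 passed, with 1 and 2 at an unadjusted p under 0.05. Of all genes 42.4% were positive in S/S and 55.9% in L/L, and 10.1% and 3.27% had such a p. Slf2 (0.66, adjusted p = 0.381), Nsmce3 (−0.17), Smc5 (0.38) and Smc6 (0.38) had the smallest p in S/S, and Nsmce4a (0.33), Nsmce3 (0.25), Nsmce1 (0.20) and Slf2 (0.24) in L/L. The SUMO ligase gene Nsmce2 was higher in the wild type of the L set than in that of the S set (0.58, adjusted p = 0.0186), opposite in sign to Ncaph, Ncapd2 and Ncapd3. In L/L minus S/S 7 of 9 were positive and 3 passed, all higher in L/L, against 3.69% of all genes called higher. The mean of the SMC5/6 list was lowest in S-set wild-type array 1, at −0.54. It was −0.1 and −0.12 in wild-type arrays 2 and 3 of that set, within the S/S range of −0.24 to 0.05. The signs in S/S and between the wild types were not counted with that array 1 left out.

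**Figure D5:**
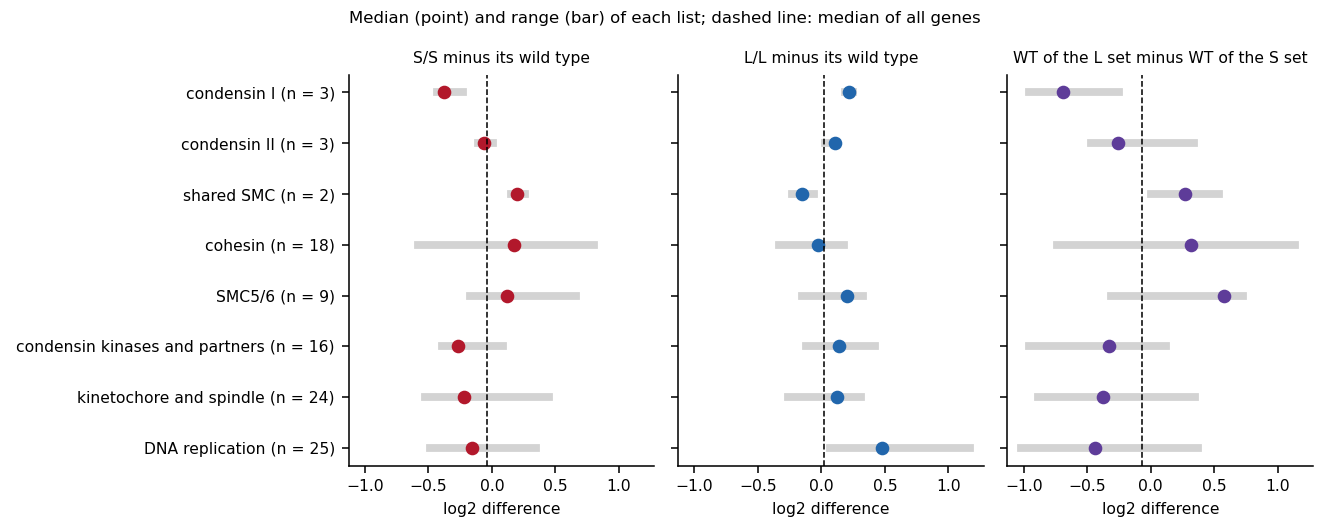
Median (point) and range (bar) of log2 differences (x axis) of condensin I, condensin II, the shared SMC genes and 5 lists of related genes (rows) in 3 comparisons; the dashed line is the median of all genes. Among these 8 rows, replication genes have the highest median in L/L, 0.48, and condensin I the lowest between the wild types, −0.69.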

How the data were processed

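Expression was measured on 12 arrays in 4 groups of 3. The deposited values are log2 RMA values (background-corrected, normalized between arrays and summarised per probe set), made by the authors with Partek per the submitters' processing notes. Their range, 2.43 to 14.67, set the scale as log2. The Partek version, the arrays normalized together and the genome build are not given in the sources used here. Of 35556 probe sets, 21789 carried 1 gene symbol. The set with the highest mean stood for each gene, which left 19938 genes with no filter on dim values.

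A model of 4 group means was fitted with limma 3.58.1 in R 4.3.3 (8 residual and 5.19 prior degrees of freedom), two-sided, with Benjamini-Hochberg adjustment over all genes of a contrast and a threshold of 0.05. The procedure was tested on simulated data. The number of arrays limits the precision. Members and lists were chosen with earlier results of these data known, and lists were read as counts and medians without a test. Of 133 listed genes beside condensin, 132 were measured. Named were all members, the 4 genes of smallest p in each of the 5 lists of related genes in S/S and in L/L, the 3 genes most correlated with each member, and, chosen after their values were seen, list and marker genes that passed between the wild types. Of the marker lists, named genes were also those of smallest p in S/S for macrophage and endothelial cells, Ptprc, Col1a1 and Vim. Promoters came from RefSeq. Alternatives covered normalization, a filter at a mean of 6, fits per set, variance moderation, array weights, single arrays, male-pattern arrays, a replicate block and probe set averaging.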

Additional observations from a re-analysis of the deposited data

How the results depend on the processing

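Counts of condensin genes passing stayed at 0 in S/S and in L/L under every alternative except array weights, which gave 1 in S/S (Ncapd2) and 1 for the difference between the effects (Ncapd2, −0.69). Between the wild types the count of 3 became 6 with array weights and 1 without both male-pattern arrays, and it was 2 to 3 when single arrays were left out. For L/L minus S/S the count of 0 became 2 with array weights or quantile normalization and ran from 0 to 2 without single arrays. The cause of these changes was not tested. Quantile normalization turned the small Ncapg2 difference between the effects to 0.033. Array weights turned the S/S differences of Ncapg2 to −0.26, Smc2 to −0.10 and Smc4 to −0.19, that of Smc2 in L/L to 0.022, those between the effects to −0.119 (Smc2) and −0.048 (Smc4), and Ncapg2 between the wild types to −0.001. Without both male-pattern arrays Ncapg2 had −0.16 in L/L and 0.17 between the effects, and Smc4 had −0.084 in L/L minus S/S. Without both S-set arrays numbered 1, an alternative chosen after seeing the data, Ncapg2 had −0.40, Smc2 −0.17 and Smc4 −0.22 in S/S, and Smc2 −0.11 between the effects. Smc2 between the wild types, at 0.00 with all arrays weighted equally, passed with array weights (−0.37, limma, adjusted p = 0.0265).

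Leaving out single arrays changed the sign of some differences, none of which passed. In S/S these ran from −0.18 to 0.005 for Ncapd3, −0.29 to 0.31 for Ncapg2, −0.086 to 0.43 for Smc2 and −0.23 to 0.35 for Smc4. In L/L they ran from −0.15 to 0.15 for Ncapg2 and −0.22 to 0.092 for Smc2. Between the effects they ran from −0.32 to 0.28 for Ncapg2 and −0.028 to 0.49 for Smc2. Between the wild types Smc2 ran from −0.35 to 0.17. In L/L minus S/S they ran from −0.119 to 0.071 for Ncaph2 and −0.084 to 0.35 for Smc4.

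Replicate numbers were shared within each set, but same-numbered arrays did not deviate together throughout: the correlations were 0.388, 0.475 and −0.122 in the S set and 0.601, 0.058 and 0.359 in the L set. Differently numbered arrays had −0.599 to 0.587 in the S set and −0.517 to 0.214 in the L set. The male pattern was in both L-set arrays numbered 1. The labels do not say whether a shared number marks a shared origin, and the main fit did not take the numbers as pairs. With a replicate block 0 condensin genes passed in S/S, 0 in L/L and 0 for the difference between the effects, and Ncapd2 in S/S had an adjusted p of 0.239. The block lies within a set, so it was not run for comparisons between sets. Each condensin gene has 1 probe set, so averaging probe sets left the differences as they were.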
